A study of Mus musculus with 14 samples.

Results

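The 10 genes described here are Spp1, which encodes the secreted protein osteopontin, and 9 genes that are often reported together with it in macrophages loaded with lipid: Gpnmb, Trem2, Mmp12, Fabp5, Lpl, Cd9, Ctsk, Lgals3 and Atp6v0d2. They were chosen by name, through the RefSeq accession that each array probe carries, and are 10 of the 30579 genes tested. Of these 30579, 17290 had a gene symbol. Each of the rest is a single probe without a symbol, counted here as a gene, so some may belong to the same gene. The choice was made with earlier results of these data known. All 10 had at least 1 probe well above background on enough arrays to be tested. RNA came from 14 whole lungs of male C57BL/6N mice, 1 lung sample per array, taken 1 month after material was placed in the trachea. VCF mice (3 arrays) received 200 µg per mouse of carbon fibre that had not been through recycling. CCF mice (3 arrays) received 200 µg of fibre taken after the carbonization step, and RCF mice (3 arrays) 200 µg of fibre taken after firing. Control mice (5 arrays) received the phosphate-buffered saline vehicle. All groups share the strain, the sex, the route and the single time point, so nothing here describes an earlier or later response. The series asks how lung gene expression differed after each fibre.

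Osteopontin is a phosphorylated matrix protein and cytokine that binds integrins and CD44, and it is made in lung by macrophages and by injured epithelium. Macrophages that take up lipid, cell debris or particles that they cannot digest can adopt a state in which the lipid receptor TREM2, lipid-handling proteins and lysosomal enzymes are made in larger amounts. Some of the same genes, among them Spp1, Ctsk and Atp6v0d2, belong to the programme of osteoclasts, the bone-resorbing relatives of macrophages. Several are also made by other cells of the lung, for example Cd9 and Lgals3 by epithelium and Lpl by fat cells. In RNA from whole lung, fewer cells of a type and less RNA per cell cannot be told apart.

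The promoters of Spp1 and of 2 receptor genes of the group, Gpnmb and Trem2, are printed because Spp1 passed the test after one fibre while these 2 did not. Each runs from 250 bases before the RefSeq start site and is 300 bases long, 5′ to 3′ on the plus strand of GRCm38.p6. RefSeq windows were found for 7 of the 10 genes. Spp1 has 2 of them: the upstream one, printed here, is chr5:104434861-104435160, and the other, chr5:104435942-104436241, held no match to any motif searched. The Gpnmb window is chr6:49036268-49036567 and the Trem2 window chr17:48346151-48346450. Capitals mark matches to the motifs described after the sequences.
Spp1: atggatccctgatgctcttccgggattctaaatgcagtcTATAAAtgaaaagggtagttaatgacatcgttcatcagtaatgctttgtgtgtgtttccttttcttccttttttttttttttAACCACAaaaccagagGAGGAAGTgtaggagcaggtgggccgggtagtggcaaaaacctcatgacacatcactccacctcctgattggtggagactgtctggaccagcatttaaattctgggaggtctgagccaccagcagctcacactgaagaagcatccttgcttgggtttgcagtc
Gpnmb: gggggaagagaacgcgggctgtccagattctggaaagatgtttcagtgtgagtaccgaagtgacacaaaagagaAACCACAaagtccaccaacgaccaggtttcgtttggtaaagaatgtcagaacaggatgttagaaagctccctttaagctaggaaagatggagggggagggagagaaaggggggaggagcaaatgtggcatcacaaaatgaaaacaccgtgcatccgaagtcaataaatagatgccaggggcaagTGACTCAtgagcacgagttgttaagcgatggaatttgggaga
Trem2: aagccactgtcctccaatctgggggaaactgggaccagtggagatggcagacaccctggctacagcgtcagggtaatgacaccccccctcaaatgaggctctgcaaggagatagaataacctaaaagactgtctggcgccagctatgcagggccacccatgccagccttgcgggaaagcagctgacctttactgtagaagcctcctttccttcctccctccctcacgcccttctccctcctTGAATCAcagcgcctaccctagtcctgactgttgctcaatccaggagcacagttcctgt

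Both strands were searched for an AP-1 site (TGANTCA), an E-box (CACGTG) and the core of the M-box bound by MiT-family factors (CATGTG). No letters of these kinds lay in either Spp1 window, and a RUNX site (AACCACA), a PU.1 site (GAGGAAGT) and a TATA box (TATAAA) were searched for after that had been seen. In the printed Spp1 window TATAAA begins 211 bases, AACCACA 129 bases and GAGGAAGT 113 bases before the start site. In the Gpnmb window AACCACA begins 176 bases before the start site and an AP-1 match 8 bases past it. In the Trem2 window an AP-1 match begins 9 bases before the start site. Of 32851 promoters of the same length, 7.81% hold the AP-1 letters, 7.15% the E-box, 14.2% the M-box core, 5.27% the RUNX letters, 3.2% the PU.1 letters and 13.6% TATAAA. These matches are descriptions of the sequence.

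Values are log2 of the processed signal minus the 75th percentile of that array, so that 0 is the level of the 75th percentile probe, and a difference of 1 is a doubling. The 75th percentile intensity ran from 277 to 2953 over the 14 arrays, and VCF 1, CCF 2 and RCF 1 were dimmer than the rest, at 277, 323 and 375. The arrays were on 3 slides. Slide 1 held VCF 1 and 2, CCF 1 and 2, RCF 1 and control 1 and 2. Slide 2 held VCF 3, CCF 3 and control 3, and slide 3 held RCF 2 and 3 and control 4 and 5. The control 2 lung stood apart from the others in markers of squamous epithelium and fat: its mean log2 level over 4 squamous markers was 3.79, against −5.71 to −2.56 in the other 13 lungs. Its mean over 6 adipocyte markers was 3.57, against −1.48 to 2.64 in the others. The mean level of 10 general macrophage markers was 1.81 to 1.95 in VCF, 1.84 to 2.20 in CCF, 1.93 to 2.11 in RCF and 1.78 to 1.86 in control lungs. Every RCF lung was thus above every control lung in this mean. The single markers differed from control by −0.26 to 0.56 in RCF lungs, and none was called there by limma.

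**Figure D1:**
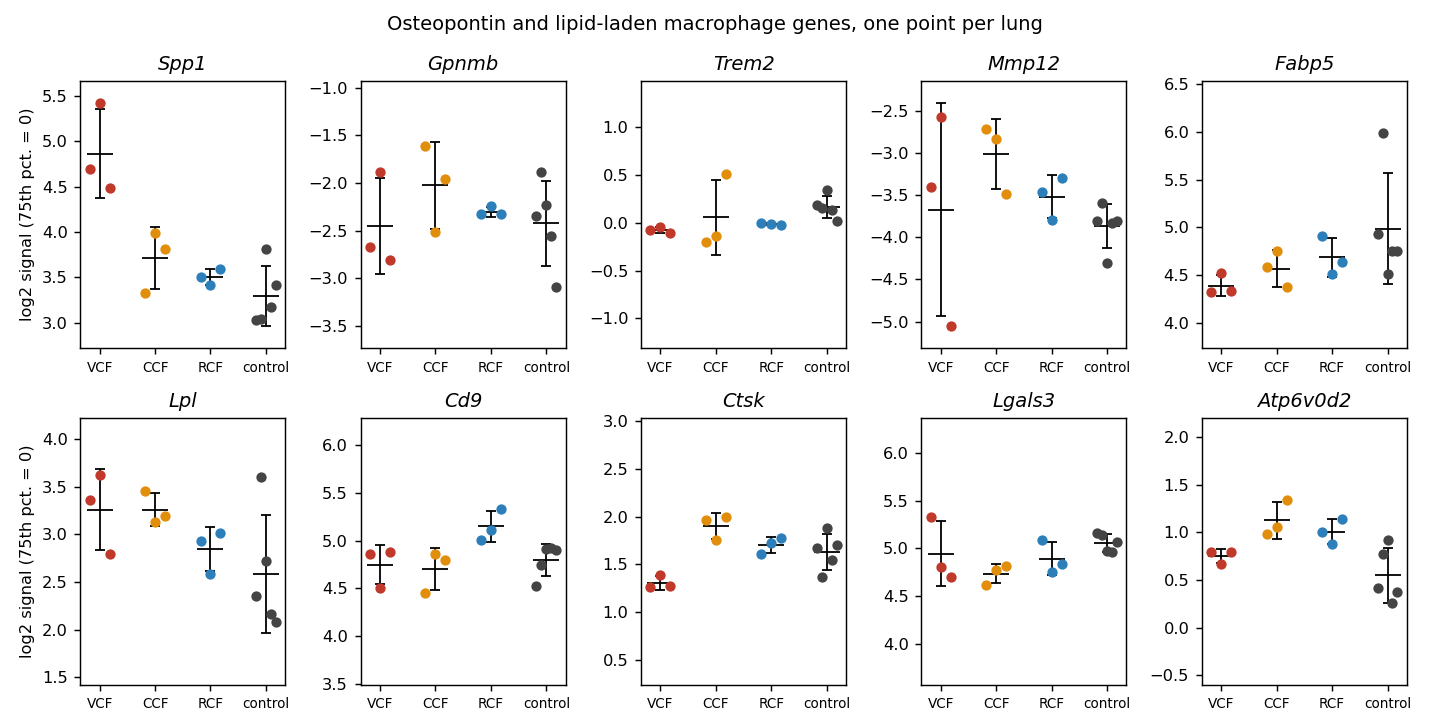
Log2 signal of each of the 10 genes on every array, with the array's 75th percentile at 0. Points are single lungs, bars are the mean and SD of 3 VCF, 3 CCF, 3 RCF and 5 control lungs, and each panel has its own range. Spp1 in VCF lungs lies between 4.48 and 5.42, above every other lung, and control 2 holds the high points of Fabp5 (5.99) and, among control lungs, Lpl (3.60).

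Spp1 was the 1 gene of the 10 that passed the test against control after any fibre, and it did so after VCF. Its log2 signal was 4.69, 5.42 and 4.48 in the 3 VCF lungs, against 3.03, 3.04, 3.81, 3.17 and 3.41 in the 5 control lungs. Every VCF lung was above every control lung, and VCF 2 was the highest of all. The difference was 1.57 ± 0.24 (log2, SE), with a 95% interval of 1.04 to 2.10, which is a 2.97-fold higher signal (limma, adjusted p = 0.0484). Over all genes 0.0294% were called higher in VCF lungs and 3.46% had every VCF lung above every control lung. By its p-value Spp1 ranked 21 of 30579 genes. Since the 10 genes were chosen with earlier results of these data known, the shares and the rank are descriptions and not independent support.

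The call on Spp1 sat close to the threshold. The difference within slide 1 was 2.02 and within slide 2, which has 1 lung of each group, it was 0.67. With slide as a fixed block it was 1.56 (adjusted p = 0.0846), and without the 3 dim arrays 1.65 (adjusted p = 0.193). The call held when control 3 was dropped (1.70, adjusted p = 0.0491) and when VCF 3 was dropped (1.76, adjusted p = 0.0472). Of the controls, the call was lost on dropping replicate 1 (1.51, adjusted p = 0.133), 2 (1.51, adjusted p = 0.0701), 4 (1.54, adjusted p = 0.141) or 5 (1.60, adjusted p = 0.0992). Dropping VCF 1 (1.65, adjusted p = 0.118) or VCF 2 (1.29, adjusted p = 0.197) also ended it. Of 20 alternatives with a test 8 kept the call, with adjusted p-values from 0.0207 to 0.375 and differences between 1.29 and 1.76.

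**Figure D2:**
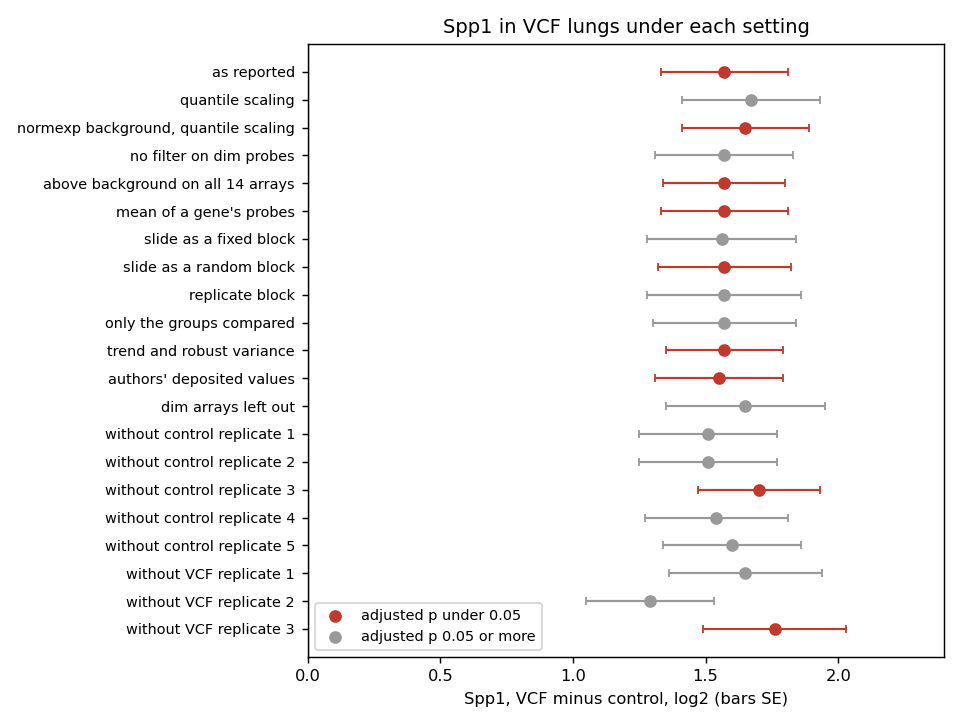
Difference in Spp1 between VCF and control lungs (log2, horizontal axis; bars are SE from limma) under the reported fit and 20 other settings. The value stays between 1.29 and 1.76, while the adjusted p lies on both sides of 0.05 (red under, grey at or over), from 0.0207 to 0.375.

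After the other fibres Spp1 did not pass the test. It read 3.33, 3.99 and 3.81 in CCF lungs and 3.50, 3.42 and 3.59 in RCF lungs, both ranges overlapping the control range of 3.03 to 3.81. The CCF difference from control was 0.42 ± 0.24 (95% interval −0.11 to 0.95, limma adjusted p = 0.33) and the RCF difference 0.21 ± 0.24 (−0.32 to 0.74, adjusted p = 0.796). The group means fell in the order VCF 4.86, CCF 3.71, RCF 3.50 and control 3.29, and CCF, RCF and control did not differ beyond their spread.

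Set directly against VCF, Spp1 was 1.15 log2 units lower in CCF lungs (−1.15 ± 0.27, 95% interval −1.75 to −0.56) with an unadjusted p of 0.00122 and a limma adjusted p of 0.107. In RCF lungs it was −1.36 ± 0.27 relative to VCF (−1.95 to −0.76, unadjusted p = 0.000334, adjusted p = 0.176). Every CCF lung and every RCF lung was below every VCF lung, as held for 8.34% of all genes in the first of these comparisons and 5.02% in the second. Neither difference between fibres passed the adjusted threshold, so the Spp1 change is not shown to differ between VCF and the other fibres. Across the 4 groups together, the moderated F for Spp1 was 14.8 (limma, adjusted p = 0.0382). It was the 1 gene of 10 called by that test, against 1.24% of all genes. That call was lost on leaving out control 1, control 4, control 5, VCF 1, VCF 2 or any single CCF or RCF lung.

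Mean levels of neutrophil markers and of monocyte and interstitial macrophage markers lay beyond the control range in every VCF lung. The mean level of fibroblast markers lay below the control range of 3.55 to 4.10 in VCF 1 and VCF 2 and inside it in VCF 3 (3.57). The mean log2 level of 9 neutrophil markers was 2.26, 2.89 and 2.92 in VCF lungs, 0.16, −0.40 and 0.18 in CCF lungs, 1.72, 1.85 and 0.80 in RCF lungs and 1.09 to 1.71 in control lungs. The summed level of those markers ran from 8.15 to 8.69 in VCF and from 7.44 to 7.94 in control lungs. One of the 9, the stefin gene Stfa1, was called higher in VCF lungs (2.69 ± 0.37, limma adjusted p = 0.0401), as were 0.0294% of all genes. That call was lost on leaving out any single VCF lung or any control other than control 2, with adjusted p-values up to 0.197 and differences of 2.51 to 2.95. In CCF lungs, where 5.99% of all genes were called in either direction, 5 of the 9 were called lower, namely S100a8, S100a9, Retnlg, Cxcr2 and Stfa2. Of 20 alternatives with a test, 17, 17, 18, 9 and 7 kept those calls, in that order. Across all 14 lungs Spp1 and the neutrophil level had r = 0.529 (permutation p = 0.0512, adjusted p = 0.295 over 100 relations) and rho = 0.385 (permutation p = 0.177, adjusted p = 0.606). Without the 2 lungs farthest in neutrophil level r was 0.638, and within the 7 arrays of slide 1 it was 0.586.

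The mean log2 level of 10 monocyte and interstitial macrophage markers was 0.13, 0.23 and 0.11 in VCF lungs, against 0.32 to 0.67 in control lungs, every VCF lung being below every control lung. Their summed level lay the other way, at 6.65 to 6.70 in VCF and 6.27 to 6.36 in control lungs. Most of that sum is the signal of 1 marker, Ly6c2, which read 6.50, 6.49 and 6.43 in VCF and 5.99 to 6.11 in control lungs. None of the 10 was called by limma in VCF lungs. At an unadjusted p under 0.05 there were 1 above and 2 below control (median difference −0.26), against 9.96% of all genes in either direction. Across all lungs Spp1 and this mean level had r = −0.529 (permutation p = 0.0499, adjusted p = 0.295) and rho = −0.341 (adjusted p = 0.65). Without CCF 3 and VCF 3, the farthest in that level, r was −0.572, and within slide 1 it was −0.716. Of the 10 marker lists the fibroblast one had the r with Spp1 farthest from 0 (r = −0.611, permutation p = 0.0195, adjusted p = 0.195; rho = −0.253, adjusted p = 0.783). It was −0.831 within slide 1 and 0.00252 without VCF 1 and VCF 2, so that the relation rests on those lungs. The fibroblast markers did not move as 1 in VCF lungs. Col3a1 (−1.31), Col1a1 (−0.75) and Col1a2 (−0.57) were below control, while Pdgfra (0.15) and Dcn (−0.01) were near it, and none was called by limma. With the mean of the general macrophage markers Spp1 had r = 0.0566 (permutation p = 0.853, adjusted p = 0.933) and rho = 0.314. The part of any of these cell types in the Spp1 difference was not tested.

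Mmp12 encodes a secreted macrophage elastase that cleaves elastin in the alveolar wall. It read −3.40, −2.57 and −5.05 in VCF lungs, −2.72, −2.83 and −3.49 in CCF lungs, −3.46, −3.79 and −3.30 in RCF lungs and −3.81, −3.59, −4.30, −3.83 and −3.81 in control lungs. Every CCF lung was above every control lung, as held for 9.90% of all genes, while VCF 3 was the lowest of all 14. VCF 1, on a dim array, was the one lung whose Mmp12 signal was not well above background. The CCF difference was 0.86 ± 0.43 (95% interval −0.08 to 1.80, 1.81-fold, limma adjusted p = 0.254). It was 0.93 within slide 1 and 0.81 within slide 2. The VCF difference was 0.20 ± 0.43 (adjusted p = 0.95), and it read 0.88 without VCF 3 and −0.35 without VCF 2. The RCF difference was 0.35 ± 0.43 (adjusted p = 0.818). Mmp12 had the widest spread within groups of the 10 genes, with a residual SD of 0.63 against a median of 0.38 over all genes. Its 2 other probes were near background: they were well above it on 5 and on 2 of the 14 arrays, and gave CCF differences of 1.69 and 1.64.

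The receptors and membrane proteins came next in role. Trem2, the lipid-sensing receptor that signals through TYROBP, read −0.08, −0.04 and −0.11 in VCF lungs and 0.19, 0.16, 0.34, 0.13 and 0.02 in control lungs. In RCF lungs it read 0.00, −0.01 and −0.02, and in CCF lungs −0.20, −0.14 and 0.51. All VCF and all RCF lungs were below all control lungs, by small amounts. The differences were −0.25 ± 0.15 in VCF (limma adjusted p = 0.666) and −0.18 ± 0.15 in RCF (adjusted p = 0.696), and −0.11 ± 0.15 in CCF lungs (adjusted p = 0.73). Of all genes, 3.91% had every VCF lung and 3.78% every RCF lung below the controls. For VCF the 95% interval of −0.58 to 0.09 leaves no room for a Trem2 rise of the size seen in Spp1.

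Gpnmb, a transmembrane glycoprotein of phagocytes induced under lysosomal stress, read −2.67, −1.88 and −2.81 in VCF lungs, −1.61, −2.51 and −1.96 in CCF lungs and −2.33, −2.24 and −2.33 in RCF lungs. In control lungs it read −2.35, −1.89, −2.23, −2.56 and −3.09, so all 3 fibre groups overlapped the controls. The differences were −0.03 ± 0.29 in VCF (95% interval −0.66 to 0.60), 0.40 ± 0.29 in CCF (−0.24 to 1.03) and 0.12 ± 0.29 in RCF lungs (−0.51 to 0.76), with limma adjusted p-values of 0.992, 0.454 and 0.926.

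Cd9, a tetraspanin of the cell surface, read 5.01, 5.11 and 5.33 in RCF lungs, against 4.53, 4.75, 4.91, 4.92 and 4.90 in control lungs. Every RCF lung was above every control lung, as held for 7.63% of all genes. The RCF difference was 0.35 ± 0.15 (95% interval 0.02 to 0.68, unadjusted p = 0.0389, limma adjusted p = 0.349). It was 0.37 within slide 1 and 0.31 within slide 3. Cd9 was 4.86, 4.51 and 4.88 in VCF and 4.45, 4.86 and 4.80 in CCF lungs, within or just below the control range, with differences of −0.05 ± 0.15 and −0.10 ± 0.15 (limma adjusted p = 0.966 and 0.765). Every RCF lung was also above every VCF lung and every CCF lung, by 0.40 ± 0.17 and 0.45 ± 0.17 (limma adjusted p = 0.506 and 0.487). Such separation held for 10.6% of all genes against VCF and 8.87% against CCF. In the opposite direction, Lpl in RCF lungs was below Lpl in every CCF lung, as held for 7.14% of all genes (−0.41 ± 0.35, limma adjusted p = 0.773).

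The 2 lipid-handling genes pointed in opposite directions, and 1 control lung weighed on both. Lpl, lipoprotein lipase, which frees fatty acids from lipoproteins, read 3.36, 3.62 and 2.79 in VCF lungs, 3.46, 3.13 and 3.19 in CCF lungs and 2.93, 2.59 and 3.02 in RCF lungs. In control lungs it read 2.35, 3.60, 2.72, 2.17 and 2.08. Apart from control 2, every control lung was below every VCF and CCF lung. The differences were 0.67 ± 0.32 in VCF (95% interval −0.02 to 1.36, limma adjusted p = 0.514), 0.67 ± 0.32 in CCF (−0.02 to 1.36, adjusted p = 0.223) and 0.26 ± 0.32 in RCF lungs (adjusted p = 0.811). Within slide 1, which holds control 2, the VCF difference was 0.52 and the CCF difference 0.32, and within slide 2 they were 0.07 and 0.47. Without control 2 they were 0.93 ± 0.22 in VCF (adjusted p = 0.153), 0.93 ± 0.22 in CCF (adjusted p = 0.0301) and 0.52 ± 0.22 in RCF (adjusted p = 0.322), so that Lpl was called higher in CCF lungs in that refit, the 1 of 20 alternatives with a test to call it. The 2 other Lpl probes gave CCF differences of 0.01 and 0.77 and VCF differences of 0.59 and 1.12, and so disagreed in CCF.

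Fabp5, a fatty acid carrier of macrophages that is also abundant in epidermis, read 4.32, 4.52 and 4.33 in VCF lungs, 4.58, 4.75 and 4.37 in CCF lungs and 4.91, 4.51 and 4.64 in RCF lungs. In control lungs it read 4.93, 5.99, 4.51, 4.75 and 4.75. Control 2 stood more than 1 log2 unit above the next lung. The VCF difference was −0.59 ± 0.28 (95% interval −1.20 to 0.01, limma adjusted p = 0.508), and without control 2 it was −0.34 ± 0.15 (adjusted p = 0.411), a change of over 1.5 times. Within slide 1 the VCF difference was −1.04 and within slide 2 it was −0.17. The CCF difference of −0.42 ± 0.28 (adjusted p = 0.401) became −0.17 ± 0.15 (adjusted p = 0.533), and the RCF difference of −0.30 ± 0.28 (adjusted p = 0.726) became −0.05 ± 0.15 (adjusted p = 0.92).

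Marker genes of other tissue were high in that control lung. Keratin genes of squamous epithelium, Krt5, Krt13, Krt4 and Krt14, read 3.79, 5.06, 2.94 and 3.39 in control 2, and the fat genes Adipoq, Plin1 and Fabp4 read 3.71, 3.06 and 6.98. Over the 14 lungs Fabp5 and the squamous level had r = 0.783 (permutation p = 0.0443, adjusted p = 0.295) and rho = 0.0462 (adjusted p = 0.98), and without control 2 r was −0.0947. The relation therefore rests on that lung. Lpl and the adipocyte level had r = 0.648 (permutation p = 0.0116, adjusted p = 0.145) and rho = 0.648 (adjusted p = 0.328). Without control 2 and CCF 2, the farthest in adipocyte level, r was 0.745, and within slide 1 it was 0.76. Lpl also had r = 0.691 with the alveolar macrophage level (permutation p = 0.00721, adjusted p = 0.144) and rho = 0.596. The part of either tissue in the Lpl and Fabp5 differences was not tested.

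**Figure D3:**
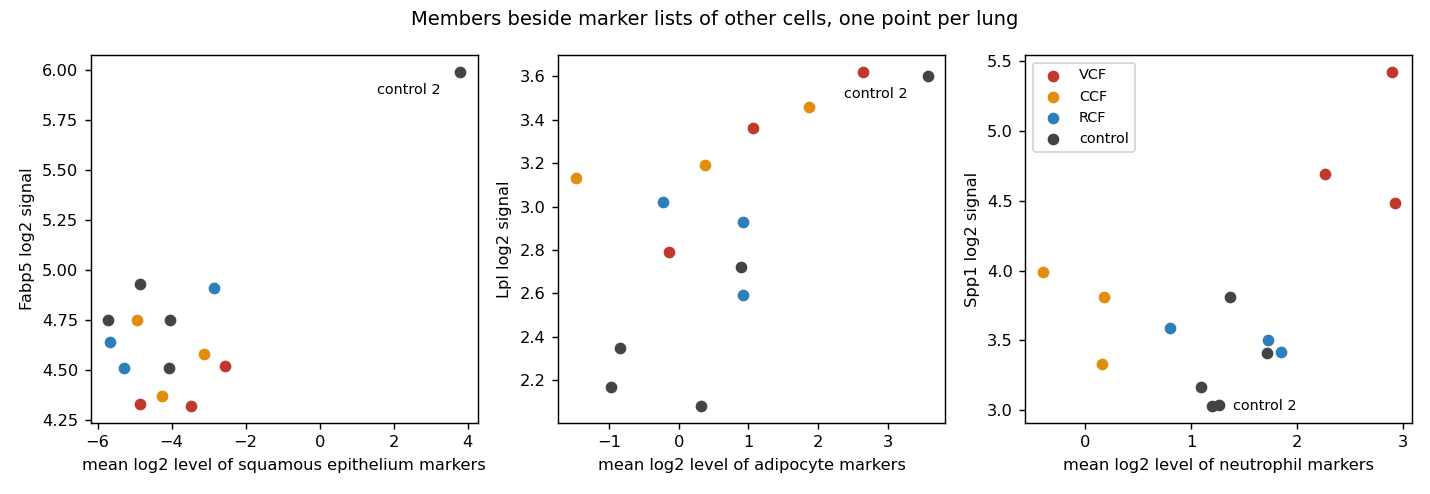
Log2 signal of Fabp5, Lpl and Spp1 (vertical axes) against the mean log2 level of squamous epithelium, adipocyte and neutrophil markers (horizontal axes), 1 point per lung. In the Fabp5 panel control 2 lies alone at 3.79 and 5.99. In the Lpl panel the points spread along a slope (r = 0.648), and in the Spp1 panel the 3 VCF lungs are highest on both axes.

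The lysosomal group holds Ctsk, Atp6v0d2 and Lgals3. Atp6v0d2, a subunit of the proton pump that acidifies lysosomes and a gene of osteoclasts and macrophages, came closest to the threshold after CCF. It read 0.98, 1.05 and 1.34 in CCF lungs, against 0.41, 0.77, 0.92, 0.26 and 0.37 in control lungs. Every CCF lung was above every control lung, as held for 9.90% of all genes. The difference was 0.58 ± 0.16 (95% interval 0.22 to 0.93, 1.49-fold, unadjusted p = 0.00428, limma adjusted p = 0.0588), and it was 0.43 within slide 1 and 0.42 within slide 2. It passed without control 2 (0.63, adjusted p = 0.0411) and without control 3 (0.67, adjusted p = 0.0287), and in none of the 6 other refits with 1 lung left out, in which the adjusted p reached 0.177. With slide as a fixed block it was 0.47 (adjusted p = 0.0722) and without the dim arrays 0.61 (adjusted p = 0.154), and 6 of 20 alternatives with a test called it. In RCF lungs it read 1.00, 0.88 and 1.14, with a difference of 0.46 ± 0.16 (0.10 to 0.82, adjusted p = 0.249). In VCF lungs it read 0.79, 0.67 and 0.79, with a difference of 0.20 ± 0.16 (adjusted p = 0.781), inside the control range. A second, dimmer probe gave 0.73, 1.10 and 1.14 for VCF, CCF and RCF, all larger than those of the probe used. On that probe control 1 was not well above background and read −4.95, against −3.90 to −3.03 in the other controls, which enlarges all 3 differences. Across lungs Atp6v0d2 had r = 0.70 with the alveolar macrophage level (permutation p = 0.00555, adjusted p = 0.139) and rho = 0.459 (adjusted p = 0.526), which was 0.523 as r within slide 1.

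Ctsk encodes cathepsin K, a collagen-degrading protease of osteoclasts, fibroblasts and some macrophages. It read 1.26, 1.39 and 1.27 in VCF lungs, 1.96, 1.75 and 2.00 in CCF lungs, 1.61, 1.72 and 1.78 in RCF lungs and 1.67, 1.37, 1.88, 1.54 and 1.70 in control lungs. VCF lungs lay at the low end and CCF lungs at the high end, and both groups overlapped the controls. The VCF difference was −0.33 ± 0.13 (95% interval −0.61 to −0.05, limma adjusted p = 0.412) and the CCF difference 0.27 ± 0.13 (−0.01 to 0.55, adjusted p = 0.229), while RCF differed by 0.07 ± 0.13 (adjusted p = 0.9). The VCF difference was −0.20 within slide 1 and −0.61 within slide 2, and the CCF difference 0.34 and 0.12. CCF minus VCF was 0.60 ± 0.14 (0.28 to 0.91, 1.51-fold, unadjusted p = 0.00141, limma adjusted p = 0.111). All CCF lungs were above all VCF lungs, as held for 10.7% of all genes. It passed in 1 of 18 alternatives with a test, slide as a random block (0.60, adjusted p = 0.0429), and the adjusted p was otherwise up to 0.345. With slide as a fixed block it was 0.60 (adjusted p = 0.057). RCF minus VCF was 0.40 ± 0.14 (0.08 to 0.71, adjusted p = 0.444). Ctsk ran with the mean of 5 fibroblast markers across lungs (r = 0.757, permutation p = 0.00178, adjusted p = 0.106; rho = 0.727, adjusted p = 0.241). Without VCF 1 and VCF 2, farthest in fibroblast level, r was 0.652, and within slide 1 it was 0.735. Ctsk ran against the neutrophil level about as closely (r = −0.742, permutation p = 0.00251, adjusted p = 0.106; rho = −0.697, adjusted p = 0.241). Without CCF 2 and VCF 3, farthest in neutrophil level, r was −0.739, and within slide 1 it was −0.778. With the monocyte and interstitial macrophage level r was 0.665 (permutation p = 0.0104, adjusted p = 0.145), and 0.462 without CCF 3 and VCF 3. The fibroblast level was 3.22 to 3.57 in VCF, 3.68 to 4.05 in CCF, 3.72 to 4.15 in RCF and 3.55 to 4.10 in control lungs. The part of any of these cell types in the Ctsk differences was not tested.

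Lgals3, galectin-3, a lectin of macrophages and epithelium that marks damaged lysosomes, read 4.62, 4.77 and 4.82 in CCF lungs, against 5.16, 5.14, 4.97, 4.96 and 5.07 in control lungs. All CCF lungs were below all control lungs, as held for 6.46% of all genes. The CCF difference was −0.32 ± 0.15 (95% interval −0.65 to 0.01, limma adjusted p = 0.221), and it was −0.45 within slide 1 and −0.15 within slide 2. Lgals3 read 5.33, 4.81 and 4.70 in VCF and 5.09, 4.75 and 4.84 in RCF lungs, with differences of −0.11 ± 0.15 and −0.16 ± 0.15 (adjusted p = 0.903 and 0.723). A second Lgals3 probe, averaged over 10 spots, gave −0.21, −0.28 and 0.17 for VCF, CCF and RCF, and so disagreed with the probe used in the sign for RCF. Lgals3 had r = 0.734 with the mean of 5 alveolar type 2 cell markers (permutation p = 0.00318, adjusted p = 0.106; rho = 0.60, adjusted p = 0.328), which was 0.523 without VCF 1 and VCF 3 and 0.781 within slide 1.

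**Figure D4:**
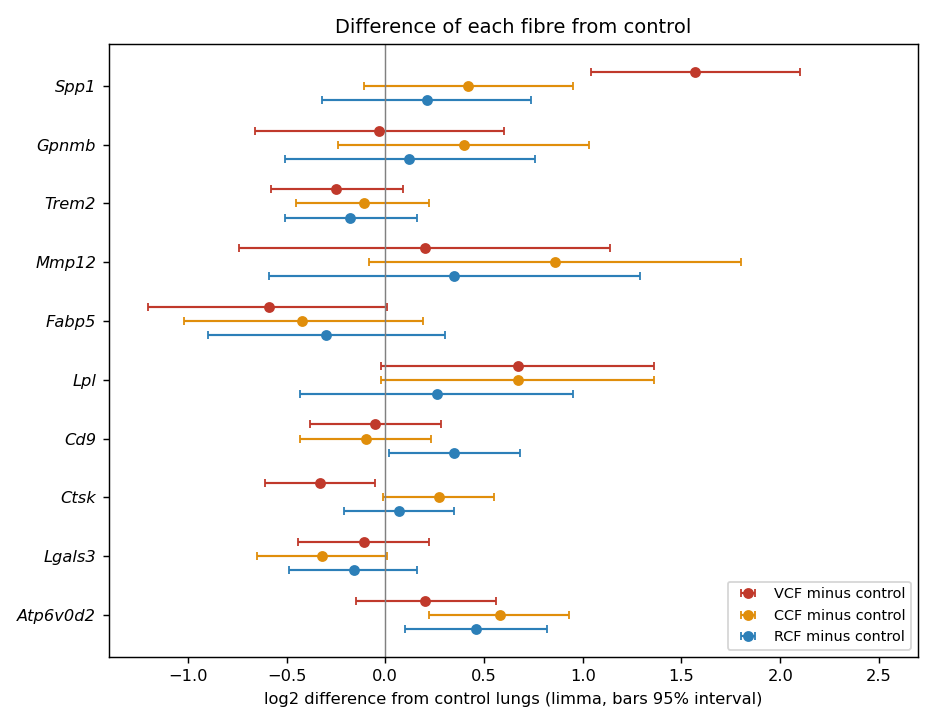
Log2 difference of each fibre group from control lungs for the 10 genes (limma estimate, bars are 95% intervals; VCF red, CCF orange, RCF blue). Spp1 after VCF (1.57) stands to the right of the other 29 values, whose largest is 0.86 for Mmp12 after CCF. Values to the left of 0 include Fabp5 and Trem2 after all 3 fibres.

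As a group the 10 genes did not shift together in VCF lungs. There 4 of the 10 were above and 6 below control, with a median difference of −0.04 against 0 over all genes. In CCF lungs 6 were above and 4 below (median 0.33, all genes 0), and in RCF lungs 7 were above and 3 below (median 0.17, all genes 0.06). The 10 general macrophage markers had medians of 0.04, 0.31 and 0.23 after VCF, CCF and RCF, and their part in these shifts was not tested. At the adjusted threshold 1 of 10 was called after VCF, where 0.0850% of all genes were, and 2 of 10 had an unadjusted p under 0.05, as did 9.96% of all genes. None of 10 was called by limma after CCF, where 5.99% of all genes were, and 1 of 10 had an unadjusted p under 0.05, as did 23.7% of all genes. None of 10 was called by limma after RCF, where 0.154% of all genes were, and 2 of 10 had an unadjusted p under 0.05, as did 12.9% of all genes. Lungs that did not overlap with control in either direction were seen for 2 of 10 genes after VCF (Spp1 above, Trem2 below), 3 of 10 after CCF (Mmp12 and Atp6v0d2 above, Lgals3 below) and 2 of 10 after RCF (Cd9 above, Trem2 below). Of all genes, 3.46% lay wholly above and 3.91% wholly below control after VCF, 9.90% and 6.46% after CCF, and 7.63% and 3.78% after RCF. With the 9 fibre lungs averaged by group, Spp1 (0.73 ± 0.19, limma adjusted p = 0.0584), Atp6v0d2 (0.41 ± 0.12, adjusted p = 0.0962) and Lpl (0.54 ± 0.24, adjusted p = 0.249) were above the control mean in 9 of 9 fibre lungs. Fabp5 was below it in all 9, although without control 2 its difference was −0.19 (limma adjusted p = 0.403). The share of all genes with every fibre lung on 1 side of the control mean was not counted, so these are descriptions only. For Lpl it also rests on the probe used, since another Lpl probe gave −0.10 in RCF lungs. By limma none of the 10 passed for the mean of 3 fibres, while 2.58% of all genes did. An unadjusted p under 0.05 was found for 3 of the 10, and for 19.5% of all genes. Without control 2, Lpl passed (0.79, adjusted p = 0.0401), and without control 3, Spp1 passed (0.86, adjusted p = 0.0391). Of 25 alternatives with a test 1 called Lpl, 1 Atp6v0d2 and 6 Spp1 in that comparison. None of 10 passed by limma between fibres, where 0.222% of all genes did for CCF against VCF, 0.00981% for RCF against VCF and 0.00327% for RCF against CCF. At an unadjusted p under 0.05 there were 2, 3 and 1 of 10 in those 3 comparisons, against 13.8%, 9.05% and 9.26% of all genes.

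Nor were the 10 genes shown to vary together, as 1 set, from lung to lung. Over the 45 pairs Pearson r ran from −0.536 to 0.665 with a median of 0.0422, and 25 pairs were positive. No pair passed after adjustment over the 45 pairs by permutation, and 3 had an unadjusted p under 0.05 by r and 5 by rho. The most positive was Gpnmb with Lpl (r = 0.665, permutation p = 0.009, adjusted p = 0.405; rho = 0.631, adjusted p = 0.244), for which r was 0.476 without control 5 and CCF 1 and 0.492 within slide 1. The most negative was Spp1 with Fabp5 (r = −0.536, permutation p = 0.0635, adjusted p = 0.514; rho = −0.727, adjusted p = 0.0974). Spp1 had r = −0.0481 with Gpnmb and −0.265 with Trem2. The 3 pairs with an unadjusted p under 0.05 by r all held Lpl. Beside Gpnmb, its partners were Atp6v0d2 (r = 0.575, permutation adjusted p = 0.514) and Mmp12 (r = 0.563, adjusted p = 0.514). For Mmp12 with Lpl rho was 0.745 (permutation adjusted p = 0.0974), and for Gpnmb with Mmp12 r was 0.526. Over these 14 whole lungs the 10 genes were thus not shown to form 1 correlated set, and some of them had positive r with one another.

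Other genes resembled Spp1 more closely than any of the 9 did. Among 15752 genes with a symbol, the highest Pearson r with Spp1 over the 14 lungs belonged to Il22ra2, which encodes a soluble decoy receptor for interleukin-22 (0.905), the sulfotransferase gene Sult1a1 (0.889), Doc2b (0.884), Fbxo33 (0.866) and Lonrf3 (0.855). With the group means removed these were 0.564, 0.525, 0.605, 0.827 and 0.40. For the mean profile of the 10 genes the highest values were Pdgfc (0.849), Cul4b (0.843), Acadl (0.833), Mknk2 (0.829) and Ric8b (0.822). These are the highest of many and carry no test.

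Genes that act beside the 10 were also mostly not called. Of all genes, 0.0850%, 5.99% and 0.154% were called by limma after VCF, CCF and RCF. At an unadjusted p under 0.05 the shares were 9.96%, 23.7% and 12.9%. The counts of every list that follows are to be read beside these shares. Of 10 osteopontin receptor genes none passed in any fibre group by limma, and the median difference was −0.24 in VCF, −0.24 in CCF and −0.11 in RCF lungs. At an unadjusted p under 0.05 there were 1 in VCF, 6 in CCF and 1 in RCF. The smallest p-values in VCF belonged to the integrin genes Itga5 (−0.50 ± 0.19, adjusted p = 0.398) and Itga4 (−0.30 ± 0.15, adjusted p = 0.538). Of 9 tested genes for TREM2 signalling and its ligands, 1 fell, Hcst, the DAP10 adaptor, in CCF lungs (−0.69 ± 0.16, limma adjusted p = 0.0321). Hcst read 1.45, 1.11 and 1.39 in CCF, against 2.08, 1.90, 1.81, 2.23 and 2.00 in control lungs. The Hcst call was lost without control 1, 4 or 5 or any single CCF lung, with adjusted p-values from 0.0622 to 0.129. The list's medians were −0.17, −0.12 and −0.02 for VCF, CCF and RCF.

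Of 20 further genes of lipid-laden macrophages 1 fell in CCF lungs, where 5.99% of all genes were called, namely Soat1, which makes cholesterol esters for storage. It read −1.72, −0.96 and −0.40 in CCF lungs, against 1.41, 0.02, 1.34, 1.52 and 1.5 in control lungs, with control 2 the lowest of the controls. The difference was −2.18 ± 0.43 (limma adjusted p = 0.0189). Without control 4, CCF 1 or CCF 2 the Soat1 call was lost (adjusted p = 0.0503, 0.0702 and 0.0703), and with the mean of its probes in place of the brightest the difference was −0.59. The 20 genes had medians of −0.11, −0.08 and −0.10 for VCF, CCF and RCF. None of 14 further osteoclast genes passed by limma, with 0, 5 and 2 at an unadjusted p under 0.05 in VCF, CCF and RCF and medians of −0.08, 0.00 and 0.02. The smallest p-values among them in VCF were those of Tcirg1 (−0.31 ± 0.16, adjusted p = 0.572) and Ocstamp (−0.96 ± 0.53, adjusted p = 0.603).

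Of 16 lysosomal genes and MiT factors, 1 rose in CCF lungs, where 5.99% of all genes were called, namely Lamp2, a lysosomal membrane protein. It read 3.76, 3.75 and 3.67 in CCF, against 2.99, 3.33, 2.92, 3.02 and 3.15 in control lungs (0.64 ± 0.12, limma adjusted p = 0.0141). Without CCF 2 it was 0.63 (adjusted p = 0.0597). The 16 genes had medians of −0.15, 0.00 and −0.10 for VCF, CCF and RCF. None of 15 macrophage growth and fibrosis signals passed by limma, with 5, 2 and 1 at an unadjusted p under 0.05 and medians of −0.28, 0.09 and −0.04. Pdgfa (−0.56 ± 0.13, adjusted p = 0.152) and Chil3 (0.69 ± 0.22, adjusted p = 0.289) had the smallest p-values among them in VCF.

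Genes that mark macrophages were called in CCF lungs in 2 lists, 1 of 10 in each, while 5.99% of all genes were called there. Of the 10 general macrophage markers 1 rose, the efferocytosis receptor Mertk (0.61 ± 0.15, limma adjusted p = 0.04). The Mertk call was lost without control 1, 4 or 5 or any single CCF lung, with adjusted p-values from 0.0625 to 0.143. Of 10 markers of monocytes and interstitial macrophages 1 rose, Lyve1, the hyaluronan receptor. It read 3.66, 3.94 and 4.01 in CCF, against 2.63, 2.59, 2.78, 2.76 and 3.18 in control lungs (1.08 ± 0.17, adjusted p = 0.00993), and its call held with any single lung left out. Lyve1 also marks lymphatic vessels. None of the 11 tested alveolar macrophage markers passed by limma, with 1, 3 and 3 at an unadjusted p under 0.05 and medians of 0.01, 0.21 and 0.19 for VCF, CCF and RCF. No marker of fat, heart muscle, squamous epithelium, fibroblasts, alveolar type 2 cells or smooth muscle was called by limma in any fibre group. At an unadjusted p under 0.05 there were 2 fibroblast markers in VCF, 1 in CCF and 1 smooth muscle marker in RCF.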

How the data were processed

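RNA from 14 mouse lungs was read on one-colour (Cy3) Agilent arrays, and per the labels each group holds independent biological samples. Per the file headers, the deposited intensity values came from Feature Extraction 10.7.3.1: a processed signal, background-subtracted and detrended but not scaled between arrays, and a median signal for spots and for the background around them. The authors' deposited table for the series holds log2 values, each column equal within 0.01 to log2 of that array's processed signal minus 1 constant. No source used here says where these constants come from. Column medians were −0.05, −0.03, −0.29, −0.50 and −0.49 (control 1 to 5), 0.30, −0.30 and −0.37 (VCF), −0.36, 0.16 and −0.34 (CCF) and −0.17, −0.52 and −0.49 (RCF).

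Log2 of the processed signal minus the array's 75th percentile was used. Outlier spots were left out, spots of a probe averaged, and probes kept if well above background on 3 or more of 14 arrays. The brightest probe stood for a gene, and a probe without a symbol was tested on its own and counted among all genes. The 10 genes had 16 probes, 15 of them kept, and none was saturated. Groups were compared with limma 3.58.1 in R 4.3.3, all 4 groups sharing 1 spread, with Benjamini-Hochberg adjustment over all genes tested (30579, or 30574 where RCF takes part) and a threshold of 0.05. The fit was run on simulated arrays with independent noise for each gene and no slide effect. That run does not bear on slides, dim arrays or outlying lungs. Correlations used 1e+05 permutations. The number of arrays limits the precision.

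The 10 genes and all gene lists were chosen with earlier results of these data known. Named beside the 10 were the 5 genes most like Spp1 and most like the mean of the 10, list genes past the threshold, and otherwise the 2 list genes with the smallest p in VCF. Siglec5, Ly6g and Ms4a4a had no named probe, and Dsg3 did not pass the filter. Alternatives were other scalings, filters, probe rules, blocks and variance models, the authors' deposited values, and leaving out lungs. For normexp the median signal was used. Same-numbered lungs were not treated as pairs.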

Additional observations from a re-analysis of the deposited data

Results flagged for a closer look

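In control 2, Fabp5 read 5.99, and it only just passed Dixon's test for an outlier among the control lungs (Q = 0.713, critical value 0.71). The same lung stood apart in the mean level of 4 squamous epithelium markers, at 3.79 (Q = 0.825). Over the 20 sets of 5 control lungs examined this way, for 10 genes and 10 marker lists, chance marks about 1 set in 20. Without control 2 the Fabp5 difference was −0.34 in VCF, −0.17 in CCF and −0.05 in RCF lungs. Whether the squamous signal accounts for the Fabp5 value was not tested.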

How the results depend on the processing

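Among the alternatives, the replicate block used only the 12 lungs numbered 1 to 3, and so fewer control lungs than the reported fit. What changed under the replicate block therefore cannot be put down to blocking alone. The Spp1 difference in VCF lungs (1.57) kept its direction under every alternative run. Its call was lost with quantile scaling (1.67, limma adjusted p = 0.0558), no filter on dim probes (1.57, adjusted p = 0.149), slide as a fixed block (1.56), the replicate block (1.57, adjusted p = 0.375), only the groups compared (1.57, adjusted p = 0.214) and the dim arrays left out (1.65). It was 2.02 within slide 1 and 0.67 within slide 2, and 1.29 to 1.76 with 1 lung left out. Over the 20 alternatives with a test the adjusted p was 0.0207 to 0.375, and 8 kept the call. Under those 6 settings the count of the 10 genes called after VCF went to 0 where 1 was reported, and with 1 lung left out it was 0 to 1. After CCF it was 1 where 0 was reported, Atp6v0d2, with probes above background on all 14 arrays, slide as a random block, a trend and robust variance, and the authors' deposited values, and 0 to 2 with 1 lung left out. For the mean of 3 fibres it was 1 with normexp, with all 14 arrays above background, with a trend and robust variance and with the authors' deposited values, 2 with slide as a random block, and 0 to 1 with 1 lung left out. CCF against VCF gave 2 with slide as a random block (Spp1 −1.15, adjusted p = 0.0491, and Ctsk). The F test gave 0 with no filter, the replicate block or the dim arrays left out, and 0 to 1 with 1 lung left out. Lgals3 overlapped after CCF with quantile scaling, so that 0 genes were wholly below control. Counts for RCF against control, VCF and CCF stayed at 0. Signs turned for small differences: Cd9 in VCF was 0.09 with quantile scaling, 0.05 with normexp, and 0.02 with slide as a fixed block and with the replicate block; Cd9 in CCF was 0.16 with quantile scaling and 0.15 with normexp. Gpnmb in VCF was 0.08 without the dim arrays, and Lgals3 in VCF 0.02 with quantile scaling. Under the replicate block Gpnmb was −0.14 in RCF and −0.10 for the mean of 3 fibres, and Lpl in RCF −0.04. With 1 lung left out, VCF differences ran from −0.12 to 0.07 for Cd9, −0.32 to 0.15 for Gpnmb, −0.31 to 0.01 for Lgals3 and −0.35 to 0.88 for Mmp12. CCF differences ran from −0.18 to 0.03 for Cd9 and −0.34 to 0.02 for Trem2, and Gpnmb in RCF from −0.04 to 0.26. The causes were not tested. The calls on Stfa1, Cxcr2, Hcst, Mertk and Stfa2 were kept by 6 of 19 and by 9, 9, 9 and 7 of 20 alternatives, and those on Lamp2, Lyve1 and Soat1 by 15, 18 and 13 of 20. All genes called numbered 26 after VCF, and 2 with quantile scaling, 0 with no filter, the replicate block or only the groups compared, 1 without the dim arrays and 96 with all 14 arrays above background. After CCF they numbered 1832, against 372 with no filter, 2953 with slide as a random block and 2 with the replicate block. Without the filter the median over all genes shifted by 0.161 in VCF and 0.126 in CCF. Not every same-numbered pair correlated, the condition set for treating the numbers as pairs: r was over 0.1 in 12 of 18 (median 0.181), against 11 of 54 other pairs (median −0.0338). Of the 18, 12 shared a slide, and 6 of 12 lungs correlated best with their own number. Mmp12 did not pass the filter on all 14 arrays. Dim signal limits Mmp12 most.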
